A study of Mus musculus with 10 samples.

Results

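Lysosomal hydrolase and membrane genes are described here in endothelial cells from mouse gliomas that lacked Sox7 or Sox17 in the endothelium. The 34 genes were taken by symbol from count files that hold 23238 gene symbols in all 10 libraries. They are 5 cysteine cathepsins, 3 aspartic and serine proteases, 10 glycosidases, 3 sulfatases, 4 lipid hydrolases, 3 activators or lumenal binding proteins and 6 membrane proteins. The choice was made with differences between deficient and control cells in view, so those differences are given as a description and support nothing.

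The 4 groups were Sox7-deficient cells (2 libraries), Sox7 control cells (2), Sox17-deficient cells (3) and Sox17 control cells (3), all from mice on a C57BL/6 background that carried an orthotopic glioma grown from intracranially injected GL26l cells. Sox7 and Sox17 encode transcription factors of the endothelium. Floxed Sox7 or Sox17 alleles were combined with the Cdh5(BAC)-CreERT2 driver, in which an endothelial cadherin promoter drives a recombinase that tamoxifen switches on, and the dose was 20 mg/kg. Whether controls carried the driver or received tamoxifen is not given in the labels, so tamoxifen or recombinase activity and the deletion cannot be told apart. Each deficient library has a control of the same number, called a set below, and the series describes the sets as independent. The labels do not say how many animals gave each library, so p-values measure only the spread between these libraries.

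Lysosomes are acidic organelles in which soluble hydrolases break down proteins, glycans and lipids brought in by endocytosis, phagocytosis and autophagy. Most of the soluble enzymes reach the lysosome through a mannose 6-phosphate tag, while heavily glycosylated membrane proteins line its wall and transporters carry the products out. Many of these genes are controlled together by the transcription factor TFEB and its relatives, which bind an E-box-type element in their promoters. Every cell has lysosomes, and macrophages are known for a very large load of them.

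Promoter windows, from 250 bases before to 50 after the annotated start, were read from the RefSeq table for GRCm38.p6. Of the 34 genes, 30 had at least 1 window. Those of Ctsd, Ctsa, Lamp1 and Mcoln1 are shown because they hold the E-box-type element and belong to a protease, a carboxypeptidase, a structural membrane protein and an ion channel. Capitals mark TCACGTGA or, where only the core is there, CACGTG, and each sequence runs 5′ to 3′ on the gene's own strand. The windows lie at chr7:142387778-142388077 (minus strand, Ctsd), chr2:164833523-164833822 (plus strand, Ctsa), chr8:13158911-13159210 (plus strand, Lamp1) and chr8:3500269-3500568 (plus strand, Mcoln1).
Ctsd: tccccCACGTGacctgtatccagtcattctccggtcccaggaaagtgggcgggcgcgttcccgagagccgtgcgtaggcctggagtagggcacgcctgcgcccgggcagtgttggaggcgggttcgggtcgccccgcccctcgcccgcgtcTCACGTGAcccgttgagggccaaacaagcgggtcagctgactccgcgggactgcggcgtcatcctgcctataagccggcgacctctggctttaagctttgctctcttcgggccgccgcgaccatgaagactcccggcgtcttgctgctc
Ctsa: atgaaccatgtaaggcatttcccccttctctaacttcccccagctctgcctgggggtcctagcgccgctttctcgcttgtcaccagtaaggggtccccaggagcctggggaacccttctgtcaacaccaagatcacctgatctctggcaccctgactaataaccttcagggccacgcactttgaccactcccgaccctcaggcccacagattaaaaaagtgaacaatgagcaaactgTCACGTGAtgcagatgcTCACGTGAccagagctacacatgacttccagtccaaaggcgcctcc
Lamp1: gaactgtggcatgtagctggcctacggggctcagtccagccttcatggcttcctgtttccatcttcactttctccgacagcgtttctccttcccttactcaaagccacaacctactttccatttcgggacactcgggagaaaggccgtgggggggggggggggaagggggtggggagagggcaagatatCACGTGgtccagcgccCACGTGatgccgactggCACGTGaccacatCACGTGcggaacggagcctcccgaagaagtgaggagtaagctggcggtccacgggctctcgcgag
Mcoln1: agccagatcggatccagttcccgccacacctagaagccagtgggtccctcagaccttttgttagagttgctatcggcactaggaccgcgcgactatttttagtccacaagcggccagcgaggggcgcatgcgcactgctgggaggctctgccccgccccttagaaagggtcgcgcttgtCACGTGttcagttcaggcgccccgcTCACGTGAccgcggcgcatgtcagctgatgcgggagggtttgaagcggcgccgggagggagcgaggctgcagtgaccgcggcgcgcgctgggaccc

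The core CACGTG, which is its own reverse complement, was found in 11 of the 33 windows of the lysosomal genes (33.3%). It was found in 9.66% of 12546 windows of genes tested and in 7.15% of all 32851 windows. The longer TCACGTGA, which contains the core, was in 5 windows of the lysosomal genes (15.2%), those of Cln3, Ctsa, Ctsd, Gla and Mcoln1, against 1.78% of windows of genes tested. A match describes the letters in the window and does not show that a factor binds there. Asah1, Ctsb, Ctsh and Npc1 had no window.

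Total counts ran between 2082305 and 35068802 per library, and 3 counts, taken as the floor, corresponded to 0.0846 to 1.36 CPM, the count scaled to library size. Sox7 had 4 and 5 counts in Sox7-deficient cells against 193 and 64 in Sox7 control cells. Sox17 had 14, 38 and 54 counts in Sox17-deficient cells against 384, 1140 and 1508 in Sox17 control cells. All 18 endothelial markers, among them Pecam1 and Cdh5, had counts in every library, and their summed level was lowest in Sox7-deficient 1, at 11133 CPM, and highest in Sox17-deficient 2, at 21305 CPM. One library stood apart. The 20 macrophage markers summed to 17463 CPM in Sox7-deficient 1 and 220.7 CPM in Sox7-deficient 2, against 1034 and 363.4 CPM in the controls. In the Sox17 arm they summed to 87.8, 341.7 and 189.2 CPM in deficient cells, against 44.9, 677.3 and 205.0 CPM in control cells. No macrophage marker was at 0 in Sox7-deficient 1 or in Sox7 control 1. Lyz2, Mrc1, Ms4a7, Fcgr1, Ptprc and Trem2 were at 0 in Sox7-deficient 2, and 2 of the 20 were at 0 in Sox7 control 2. In the Sox17 arm, 14, 3 and 5 of the 20 markers were at 0 in deficient cells, against 14, 0 and 0 in control cells.

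The summed level of the 34 lysosomal genes was 18680 CPM in Sox7-deficient 1 and 3933 CPM in Sox7-deficient 2, against 4005 and 4512 CPM in the controls. The sum was thus 4.66 times the control's in set 1 and 0.872 times in set 2. In the Sox17 arm the sum was 3672, 3475 and 3611 CPM in deficient cells, against 2609, 3463 and 2921 CPM in control cells. The Sox17-deficient libraries all lay above the controls, in set 2 by a ratio of 1.004 that turned below 1 with total-count scaling (log2 ratio -0.11). Markers of pericytes and smooth muscle also differed in the Sox17 arm. Their 10 genes summed to 294.3, 319.2 and 332.0 CPM in Sox17-deficient cells, against 1286, 714.3 and 306.1 CPM in control cells. In the edgeR fit 9 of the 10 were lower (median log2 fold change -0.88), none called, and Cnn1 was at 0 in Sox17-deficient 3 and in Sox17 controls 1 and 2. In the Sox7 arm they summed to 413.8 and 653.1 CPM in deficient cells, against 505.6 and 291.7 CPM in control cells. The 12 glial, neuronal and glioma markers summed to at most 201.6 CPM in any library, the T, NK and B cell markers to at most 16.7 CPM and the neutrophil markers to at most 40.8 CPM. The part of these cell types in the lysosomal values was not tested. In bulk RNA, a different number of cells of a type and a different amount of RNA per cell cannot be told apart.

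**Figure D1:**
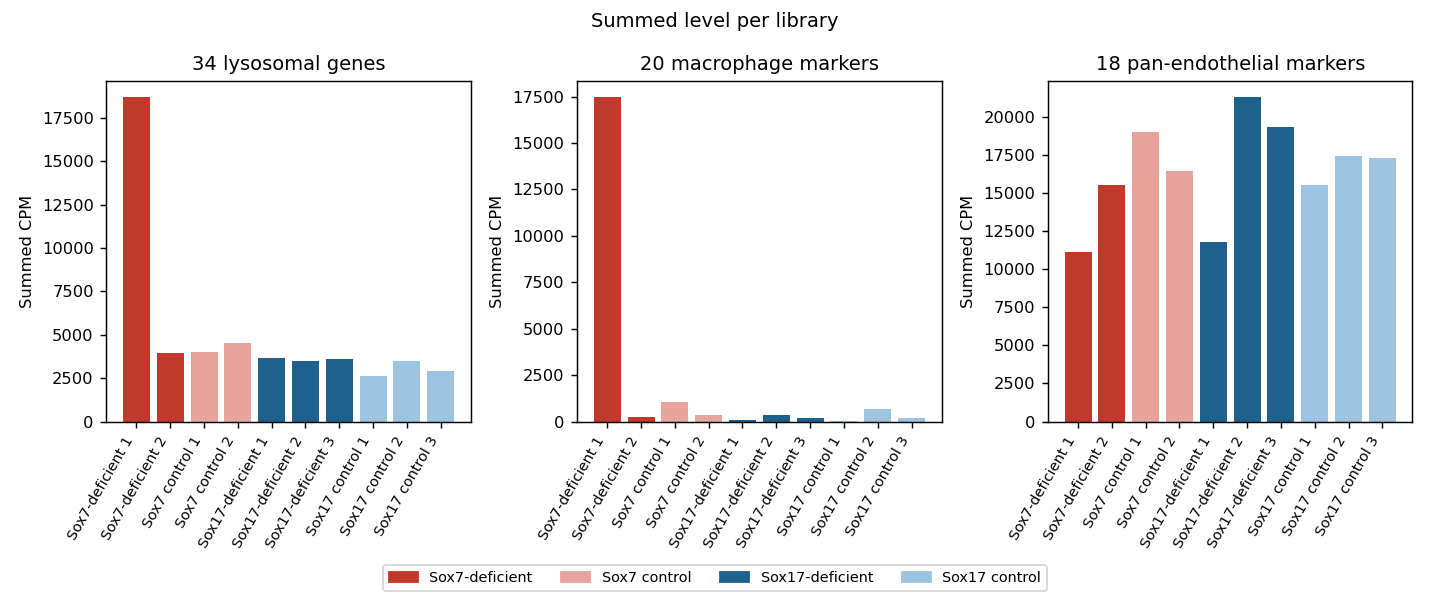
Summed CPM of the lysosomal genes, the macrophage markers and the pan-endothelial markers in each of the 10 libraries, coloured by group. Sox7-deficient 1 has 18680 CPM of the lysosomal genes and 17463 CPM of macrophage markers, and the endothelial sum is lowest there.

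High sums of macrophage markers and of lysosomal genes thus stood in the same library. In the edgeR fit all 20 macrophage markers had a higher value in Sox7-deficient cells (median log2 fold change 3.76), and 16 of 20 a lower one without that library (median -2.10). In Sox17-deficient cells 18 of the 20 were lower and 2 higher in that fit (median -0.74), none called. The part of macrophage RNA in the lysosomal values was not tested. The fold changes of the 34 genes in the Sox7 arm are drawn or summarised with and without Sox7-deficient 1.

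Coordinates below are those of the GENCODE annotation of GRCm38 (mm10). Psap lies at chr10:60277627-60302597 (plus strand), Npc2 at chr12:84754562-84773152 (minus strand), Ctsd at chr7:142375911-142388038 (minus strand) and Man2b1 at chr8:85083270-85098282 (plus strand). The levels themselves spanned a wide range. Tag counts of this kit do not grow with transcript length, so CPM was ranked between genes without a length correction. How fully the tags of each gene were captured was not tested, so the ranks are those of counted tags. Psap, the precursor of the saposins that present sphingolipids to their hydrolases, had the highest mean over the 10 libraries, 1094 CPM, or 21.5% of the summed mean. Npc2, the lumenal sterol carrier, followed with 681.7 CPM, Lamp1, a major wall glycoprotein, with 624.4 CPM and Ctsd, the main aspartic protease of lysosomes, with 397.0 CPM. These means include Sox7-deficient 1 and its high values. Over the other 9 libraries the medians were 710.5 CPM for Psap, 481.3 CPM for Lamp1, 373.3 CPM for Npc2 and 235.1 CPM for Ctsd. Lamp1 thus stood above Npc2 there. The lowest means were those of Galc (7.62 CPM), Idua (5.38 CPM) and Cln3 (5.18 CPM), a few of whose libraries were at or under 3 counts.

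**Figure D2:**
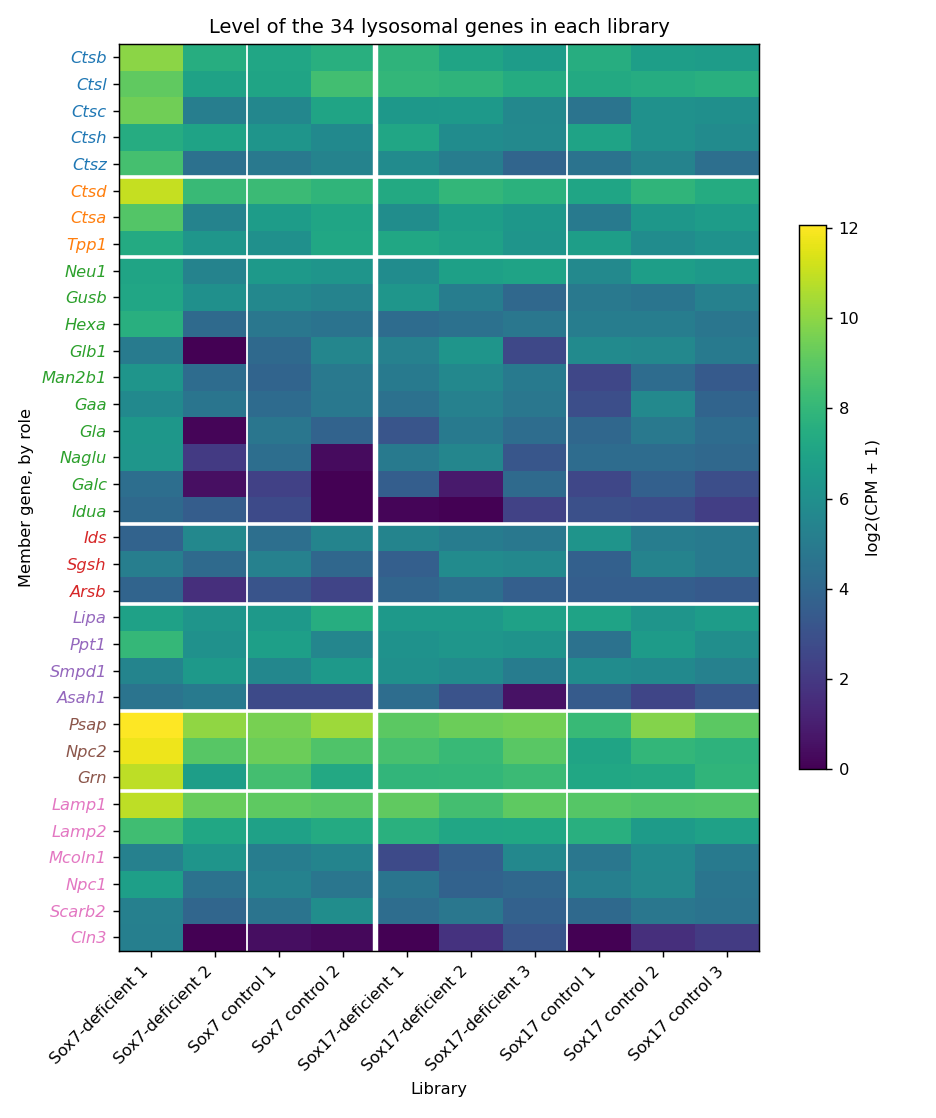
Level of each of the 34 genes in each library, on the log2(CPM + 1) scale, with genes grouped by role and deficient libraries left of their controls. Psap, Npc2 and Lamp1 are the rows with the highest levels, and Sox7-deficient 1 is the column with the highest values for 25 of the 34.

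Sox7-deficient 1 was the highest of the 10 libraries for 25 of the 34 genes, against 13.4% of all genes tested. The remaining 9 peaked elsewhere. Asah1 and Mcoln1 were highest in Sox7-deficient 2. Arsb, Glb1 and Sgsh were highest in Sox17-deficient 2, Ids in Sox17 control 1, and Lipa, Scarb2 and Smpd1 in Sox7 control 2. Over the 9 libraries other than Sox7-deficient 1, Lamp1 varied 1.77-fold, Hexa 1.97-fold, Lamp2 2.04-fold and Ctsd 2.21-fold, while Man2b1 varied 9.75-fold. Ranges were wider still for Mcoln1 (14.0-fold), Asah1 (62.0-fold), Naglu (163-fold) and Gla (230-fold). The lowest values of Naglu and Gla were at or under the floor of 3 counts, and Glb1, Idua, Galc and Cln3 fell to 0.

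Across the Sox7 arm, edgeR's quasi-likelihood test called 0 of the 34 lysosomal genes, and 0% of the 13040 genes tested, at a Benjamini-Hochberg adjusted p under 0.05. At an unadjusted p under 0.05 it gave 8 of the 34, against 1.50% of all genes, and nothing is read from this since the contrast chose the genes. DESeq2 called 0 of the 34, against 4 of the 17148 genes given a fold change, and 10 were under 0.05 unadjusted, against 516 of all genes. How many of the 17148 had a DESeq2 adjusted p was not counted. With limma-voom 0 of the 34 and 0 of 13040 genes were called, and 6 were under 0.05 unadjusted, against 520 of all genes. With set number as a replicate block 1 gene of all was called, and none of the 34. The median log2 fold change of the 34 was 1.13 (28 higher, 6 lower), against 0.04 for all genes tested. Without Sox7-deficient 1 the median was -0.49 (13 higher, 21 lower), against -0.26 for all genes, and 0 of the 34 were called against 0.100% of 13940 genes. That fit assumes that the lone Sox7-deficient library varies like the other groups.

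Set by set, 31 of the 34 were higher in Sox7 set 1, against 51.4% of all genes, and 13 of the 34 in Sox7 set 2, against 43.5%. The median difference in log2(CPM + 1) was 1.58 in set 1 and -0.19 in set 2. Higher in both sets were 11 of the 34, against 22.4% of all genes: Asah1, Ctsd, Ctsh, Galc, Gusb, Idua, Lamp1, Mcoln1, Naglu, Npc2 and Ppt1. Lower in both sets was 1 of the 34, Smpd1, against 22.4% of all genes. Higher in set 1 and lower in set 2 were 20 of the 34, against 23.4%, and Ids and Sgsh were the reverse. Over the 34 genes the differences in the 2 Sox7 sets had a Spearman correlation of -0.11, with genes that are not independent and with no library in common. Groups that did not overlap were seen for 5 of the 34, all above their controls (Asah1, Ctsh, Gusb, Idua and Lamp1), against 12.7% of all genes. That count is near the share over all genes, so nothing is read from it. None had every deficient library below every control, against 12.8%.

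**Figure D3:**
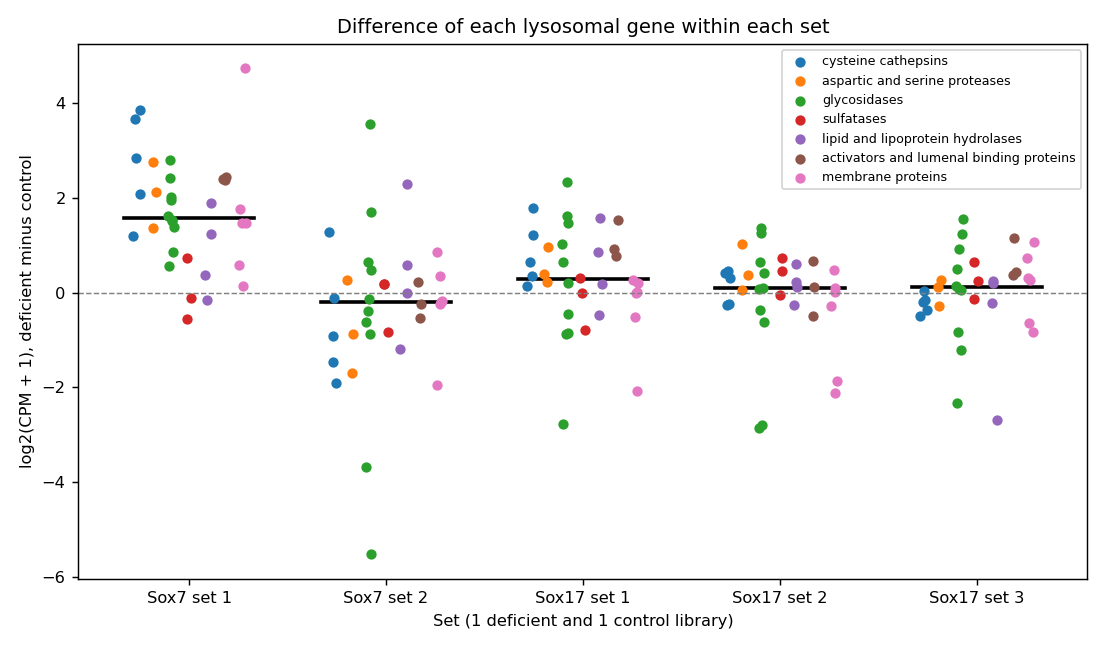
Difference in log2(CPM + 1), deficient minus control of the same number, for each of the 34 genes in the 5 sets. The points of Sox7 set 1 lie mostly above 0 (median 1.58), those of the other 4 sets around it (medians -0.19, 0.29, 0.11 and 0.13).

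Among the cysteine cathepsins, which cut proteins inside the lysosome, all 5 were higher in Sox7 set 1 (median difference 2.84 in log2) and 4 of 5 lower in Sox7 set 2 (median -0.91). Ctsb, an endopeptidase, was at 991.1 and 182.7 CPM in Sox7-deficient cells, against 137.2 and 196.8 CPM in control cells. Ctsl, another endopeptidase, was at 547.0 and 120.6 CPM in Sox7-deficient cells, against 129.0 and 333.0 CPM in control cells. In both genes the single high value was Sox7-deficient 1, and the second deficient library lay below its control. Ctsc, which removes dipeptides from the ends of proteins, was at 694.5 and 34.3 CPM in Sox7-deficient cells, against 47.0 and 130.9 CPM in control cells. The second deficient library was below both controls. Ctsz, a carboxypeptidase, was at 366.9 and 21.5 CPM in Sox7-deficient cells, against 27.99 and 41.2 CPM in control cells. Ctsh, an aminopeptidase, was an exception, at 175.2 and 127.8 CPM in Sox7-deficient cells against 76.2 and 52.3 CPM in control cells. Both deficient libraries of Ctsh lay above both controls, and its log2 fold change was 1.24 (SE 0.59), 0.96 without Sox7-deficient 1.

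All 3 aspartic and serine proteases were higher in Sox7 set 1 (median 2.13), and Ctsd alone was higher in Sox7 set 2 (median of the 3 -0.87). Ctsd was at 2009 and 282.6 CPM in Sox7-deficient cells, against 295.4 and 235.1 CPM in control cells, with a log2 fold change of 2.11 (SE 0.66). Sox7-deficient 2 lay between the controls, and the fold change without Sox7-deficient 1 was 0.06. Ctsa, a carboxypeptidase that also shields Neu1 and Glb1 in a complex, was at 450.2 and 41.4 CPM in Sox7-deficient cells, against 101.8 and 135.8 CPM in control cells. Tpp1, a tripeptidyl peptidase lost in a childhood lysosomal disease, was at 166.6 and 78.8 CPM in Sox7-deficient cells, against 64.2 and 145.0 CPM in control cells. Each deficient library of set 2 was below its control, and for Ctsa it was below both.

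The 10 glycosidases, which trim sugars off glycolipids, glycosaminoglycans and glycoproteins, were all higher in Sox7 set 1 (median 1.58), and 6 of 10 were lower in Sox7 set 2 (median -0.27). Hexa, the alpha subunit of hexosaminidase, was at 192.5 and 17.2 CPM in Sox7-deficient cells, against 26.7 and 23.0 CPM in control cells. Its second deficient library was the lowest of the 4. Gusb, which releases glucuronic acid, was at 141.6 and 64.3 CPM in Sox7-deficient cells, against 48.1 and 40.9 CPM in control cells, and both deficient libraries were above both controls. Glb1, beta-galactosidase, was at 31.0 CPM in Sox7-deficient 1 against 16.5 CPM in its control. In set 2 it had 0 counts in the deficient library against 491 in the control, at least 114-fold lower when the deficient library is set at 3 counts. Gla, alpha-galactosidase, had 1 count in Sox7-deficient 2 against 146 in its control, a CPM ratio of 0.00987 (exact 95% interval 0.000248 to 0.0558). Idua, alpha-iduronidase, showed the opposite in set 2, with 81 counts against 0, at least 38.9-fold higher on the same floor. Naglu, which removes N-acetylglucosamine, was at 78.5 CPM in Sox7-deficient 1 against 19.5 CPM in its control. In set 2 it had 24 counts against 3, a CPM ratio of 11.5 (exact 95% interval 3.50 to 59.8). These intervals and floors cover counting error only.

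The sulfatases, which take sulfate off glycosaminoglycans, were the group with the smallest differences in Sox7 set 1 (median -0.12), with Arsb higher and Ids and Sgsh lower. Ids was at 13.3 and 48.0 CPM in Sox7-deficient cells, against 19.9 and 41.9 CPM in control cells. The summed level of the 3 was 62.0 and 67.4 CPM in Sox7-deficient cells, against 65.7 and 61.5 CPM in control cells. The sum of Sox7-deficient 1 lay within the range of the other libraries, but its genes did not all do so. Ids was lower there than in any of the other 9 libraries, and Arsb, at 13.8 CPM, was above the other 3 libraries of the Sox7 arm. The sum of the 5 cysteine cathepsins was 2775 and 487.0 CPM in Sox7-deficient cells, against 417.4 and 754.3 CPM in control cells.

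Among the lipid hydrolases, Asah1, acid ceramidase, was at 23.7 and 30.8 CPM in Sox7-deficient cells, against 5.62 and 5.43 CPM in control cells. Both deficient libraries were above both controls, and the log2 fold change was 2.30 (SE 1.55), 2.45 without Sox7-deficient 1. Ppt1, which strips palmitate from proteins, was at 259.4 and 68.2 CPM in Sox7-deficient cells, against 110.1 and 45.1 CPM in control cells. Each deficient library exceeded its own control, while the groups overlapped. Lipa, acid lipase, and Smpd1, acid sphingomyelinase, differed by 0.38 and -0.16 in set 1 and by -1.19 and -0.01 in set 2 in log2(CPM + 1).

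The activators and lumenal proteins included the 2 genes with the highest means over all 10 libraries, Psap and Npc2. Psap was at 4254 and 1061 CPM in Sox7-deficient cells, against 776.3 and 1259 CPM in control cells. Grn, the precursor of granulins, was at 1826 and 105.8 CPM in Sox7-deficient cells, against 350.8 and 153.1 CPM in control cells. Npc2 was at 3493 and 491.7 CPM in Sox7-deficient cells, against 660.3 and 420.0 CPM in control cells. In all 3 the first deficient library was far above every other and the second was below at least 1 control. The log2 fold change of Grn was 1.94 (SE 0.91) with all libraries and -1.28 without Sox7-deficient 1, and that of Npc2 was 1.88 (SE 0.68) and -0.16.

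Of the membrane proteins, Lamp1 was at 1835 and 614.3 CPM in Sox7-deficient cells, against 540.0 and 481.3 CPM in control cells. Both deficient libraries were above both controls, with a log2 fold change of 1.26 (SE 0.52), 0.24 without Sox7-deficient 1. Lamp2, its close relative, was at 324.5 and 144.2 CPM in Sox7-deficient cells, against 117.0 and 164.5 CPM in control cells, with the second deficient library between the controls. Mcoln1, a calcium channel of the lysosomal membrane, was at 37.8 and 77.2 CPM in Sox7-deficient cells, against 33.98 and 42.2 CPM in control cells. Here the second deficient library was the highest. Cln3, a membrane protein lost in juvenile Batten disease, had 245 counts against 3 in set 1, a CPM ratio of 98.5 (exact 95% interval 33.3 to 481), and 0 against 2 in set 2, both under the floor. Leaving out Sox7-deficient 1 turned the sign of 19 of the 34 fold changes and moved 21 of them by over 1 in log2.

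**Figure D4:**
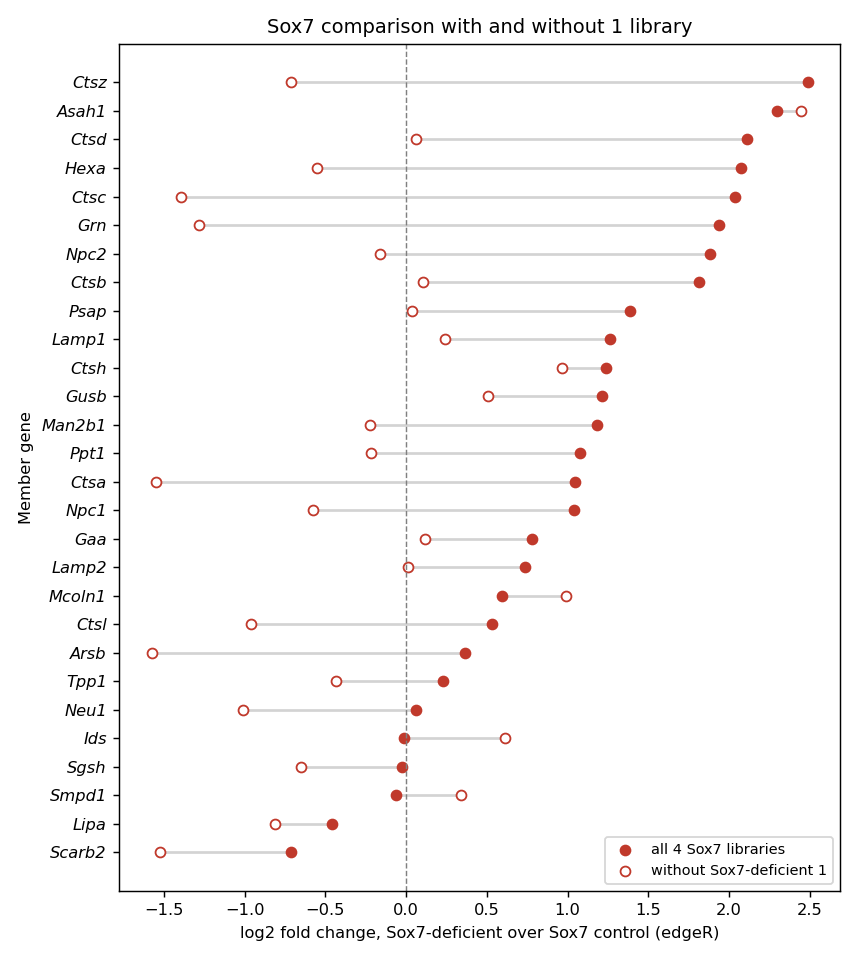
Log2 fold change of each lysosomal gene, Sox7-deficient against Sox7 control, with all libraries and without Sox7-deficient 1. The medians are 1.13 and -0.49 over all 34, and Glb1, Gla, Cln3, Galc, Idua and Naglu, with 3 counts or fewer in a Sox7 library, are not drawn.

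In the Sox17 arm edgeR's test called 0 of the 34, and 0% of all genes, at an adjusted p under 0.05, and at an unadjusted p under 0.05 it gave 1 of the 34 (Man2b1) against 3.52% of all genes. DESeq2 called 0 of the 34, against 39 of the 17148 genes given a fold change, and 1 was under 0.05 unadjusted, against 721 of all genes. With limma-voom 0 of the 34 and 0 of 13040 genes were called, and 3 were under 0.05 unadjusted, against 672 of all genes. With set number as a replicate block 6 genes of all were called, and none of the 34. The median log2 fold change was 0.25 (24 higher, 10 lower), against 0.05 for all genes tested. Higher in Sox17 set 1 were 24 of the 34, against 53.0% of all genes. In set 2 it was 22 of the 34, against 46.7%, and in set 3 21 of the 34, against 43.5%. The median differences were 0.29, 0.11 and 0.13 in log2(CPM + 1). Higher in all 3 sets were 9 of the 34, against 13.1% of all genes: Arsb, Ctsb, Ctsd, Grn, Lamp2, Man2b1, Neu1, Npc2 and Tpp1. Lower in all 3 were 2 of the 34, Ids and Npc1, against 11.5%. Every Sox17-deficient library was above every control for 4 of the 34 (Arsb, Grn, Man2b1 and Npc2), against 4.13% of all genes, and below for none, against 4.23%.

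Man2b1, alpha-mannosidase, was at 29.3, 48.6 and 30.7 CPM in Sox17-deficient cells, against 4.99, 18.3 and 9.72 CPM in control cells. The groups did not overlap, means were 36.2 ± 10.8 and 11.01 ± 6.76 CPM (SD, n = 3 each), and the log2 fold change was 1.70 (SE 0.71), 1.36 to 2.27 on leaving out any 1 library. In Sox7-deficient cells Man2b1 was at 77.2 and 18.3 CPM, against 13.6 and 28.4 CPM in control cells. Npc2 was at 373.3, 276.9 and 496.4 CPM in Sox17-deficient cells, against 128.8, 253.0 and 223.7 CPM in control cells. Grn was at 245.6, 249.6 and 300.9 CPM in Sox17-deficient cells, against 143.3, 155.4 and 233.4 CPM in control cells. For both, the lowest deficient library exceeded the highest control by little, and the log2 fold changes were 0.92 (SE 0.55) and 0.58 (SE 0.72). The macrophage and pericyte marker sums of these libraries are given above, and their part in these values was not tested.

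Npc1, the membrane partner of Npc2 in moving cholesterol out of the lysosome, had lower values. It was at 24.7, 13.0 and 15.4 CPM in Sox17-deficient cells, against 35.8, 50.1 and 24.7 CPM in control cells, with a log2 fold change of -1.06 (SE 0.62). Each deficient library was below its own control, and the highest deficient and lowest control libraries were nearly level. Ids was at 42.2, 32.1 and 27.8 CPM in Sox17-deficient cells, against 73.9, 33.2 and 30.5 CPM in control cells, with overlapping groups. Ctsd was at 157.3, 247.7 and 204.1 CPM in Sox17-deficient cells, against 133.8, 237.2 and 168.1 CPM in control cells. Its differences within sets were small, between 0.06 and 0.28 in log2(CPM + 1), and the groups overlapped.

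The other genes shown by role overlapped between Sox17 groups. Ctsb was at 228.0, 131.4 and 101.9 CPM in Sox17-deficient cells, against 178.7, 106.3 and 99.4 CPM in control cells. Ctsl was at 252.5, 230.0 and 167.7 CPM in Sox17-deficient cells, against 160.1, 172.7 and 191.5 CPM in control cells. Both cathepsins had their highest value in Sox17-deficient 1. Lamp1 was at 556.4, 346.8 and 538.7 CPM in Sox17-deficient cells, against 463.9, 422.2 and 445.0 CPM in control cells. Lamp2 was at 198.6, 137.2 and 145.3 CPM in Sox17-deficient cells, against 196.8, 97.6 and 117.8 CPM in control cells. Psap was at 522.2, 646.2 and 710.5 CPM in Sox17-deficient cells, against 276.6, 911.7 and 522.7 CPM in control cells. The controls of Psap spanned the deficient libraries on both sides. Tpp1 was at 141.9, 117.0 and 76.0 CPM in Sox17-deficient cells, against 107.9, 57.2 and 70.3 CPM in control cells, and Neu1, a sialidase, at 56.9, 113.7 and 125.8 CPM against 49.4, 106.7 and 88.2 CPM. Idua had 1 count in Sox17-deficient 1 against 15 in its control, and 0 against 79 in set 2, at least 73.7-fold lower on the floor of 3 counts. In set 3 Idua was at 4.22 CPM in the deficient library against 3.71 CPM in its control.

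**Figure D5:**
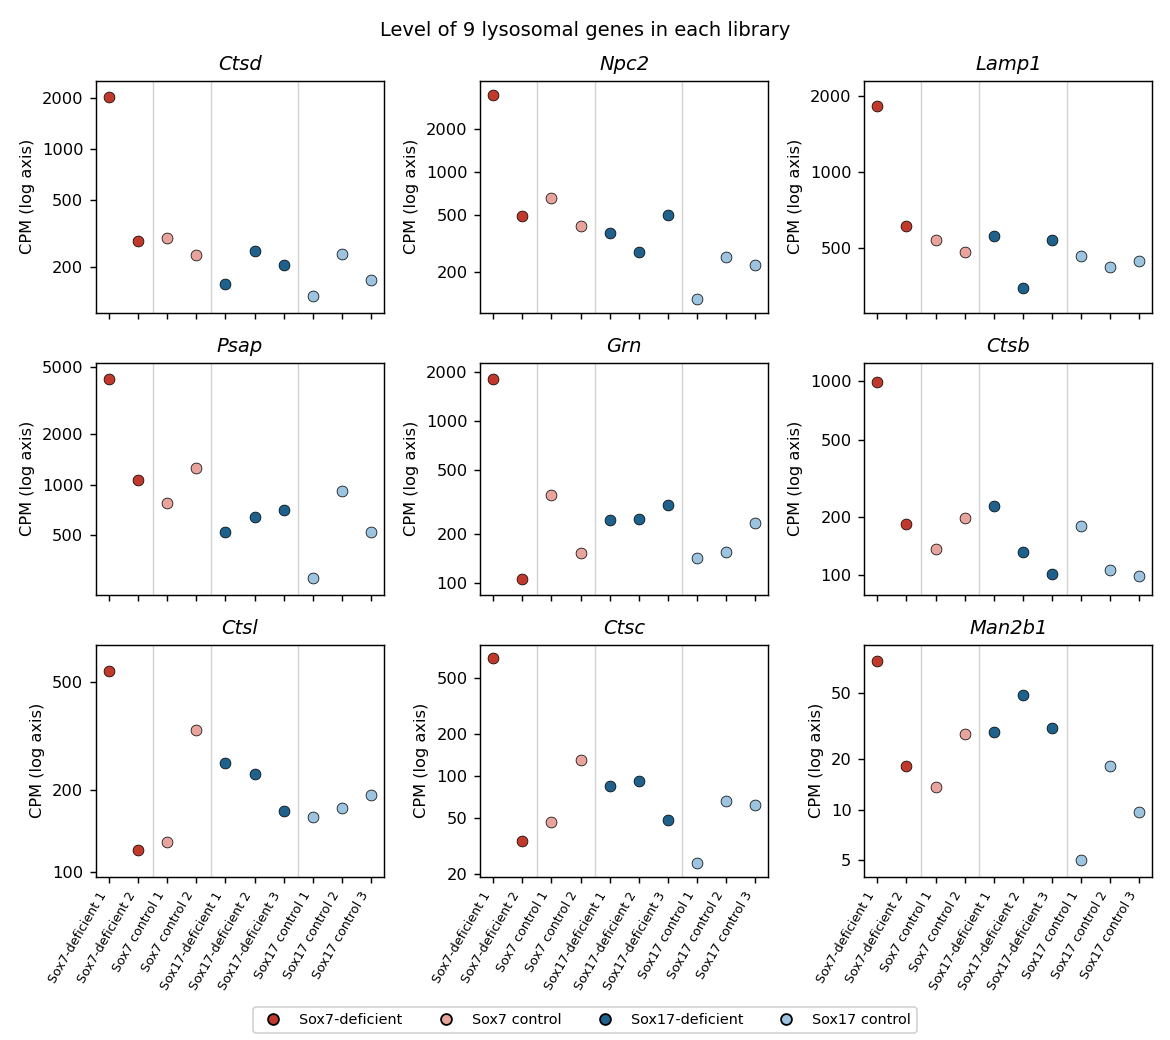
CPM on a log axis of Ctsd, Npc2, Lamp1, Psap, Grn, Ctsb, Ctsl, Ctsc and Man2b1 in each library, 1 point a library, coloured by group. Sox7-deficient 1 is the highest point in all 9 panels, and the 3 Sox17-deficient points of Man2b1 lie above the 3 Sox17 controls.

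The difference between the Sox7 and Sox17 comparisons was tested in the same edgeR fit. None of the 34, and 0% of all genes, passed at an adjusted p under 0.05 (DESeq2 and limma-voom also 0 of the 34), and at an unadjusted p under 0.05 it was 3 of the 34 (Ctsd, Hexa and Npc1), against 2.86% of all genes. With the replicate block 3 genes of all were called, none of them among the 34. Ctsd and Npc2 were higher in all 5 sets, 2 of the 34 against 3.32% of all genes. The Sox7 and Sox17 comparisons do not share control libraries.

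Other genes of the pathway were read from lists drawn up by function. The lists were chosen with earlier results of these data known, so their counts are a description and support nothing. In either arm edgeR called none of the 89 listed genes at an adjusted p under 0.05, against 0% of all genes. At an unadjusted p under 0.05 it gave 9 in the Sox7 comparison, against 1.50% of all genes. In the Sox17 comparison it gave 2, against 3.52%. Without Sox7-deficient 1 it called none in the Sox7 comparison (8 unadjusted, against 5.96% of all genes). DESeq2 and limma-voom called 0 of them. With no filter on low counts edgeR called 4 of the 89 in the Sox7 comparison, against 0.338% of all genes, and 1 in the difference between arms, Ctss, against 0.338%. Among the 4 were Ctss, a cathepsin known from macrophages and other antigen-presenting cells, Lgmn, an asparaginyl protease, and Cd63, a tetraspanin of the lysosomal membrane, named after their values were seen. Ctss was at 5039 and 15.65 CPM in Sox7-deficient cells, against 293.6 and 150.7 CPM in control cells. Lgmn was at 1592 and 119.0 CPM in Sox7-deficient cells, against 159.4 and 222.4 CPM in control cells. Cd63 was at 4790 and 223.7 CPM in Sox7-deficient cells, against 516.9 and 251.0 CPM in control cells. For all 3 the high value was Sox7-deficient 1 and the second deficient library was below both controls. Of 27 further hydrolases, 22 were higher and 5 lower in Sox7-deficient cells (median log2 fold change 1.36, -0.44 without Sox7-deficient 1). Arsa, arylsulfatase A, was at 42.98 and 2.785 CPM in Sox7-deficient cells, against 43.79 and 73.29 CPM in control cells. Its log2 fold change was -1.36 (SE 0.83), and -4.41 without Sox7-deficient 1. The low value was that of Sox7-deficient 2 alone, with 21 counts, while Sox7-deficient 1 was nearly level with its control. The summed level of these hydrolases was 8796 and 649.3 CPM in Sox7-deficient cells, against 1010 and 1025 CPM in control cells. In Sox17-deficient cells 13 were higher and 14 lower (median -0.16).

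Of 16 subunits of the vacuolar ATPase, the pump that acidifies the lysosome, 14 were higher and 2 lower in Sox7-deficient cells (median 0.77), but the median was 0.01 without Sox7-deficient 1. The summed level was 4160 and 1654 CPM in Sox7-deficient cells, against 1729 and 1551 CPM in control cells. Of 13 genes of mannose 6-phosphate sorting, 9 were higher and 4 lower (median 0.28, 0.14 without that library), with Ap1b1, an adaptor subunit, at a log2 fold change of 1.72 (SE 0.52), and 1.27 (SE 0.64) without it. Of 18 further membrane proteins, 14 were higher and 4 lower (median 0.61, -0.12 without it), and of 15 genes of the TFEB family and of the docking of mTORC1 on lysosomes, 8 were higher and 7 lower (median 0.51, -0.29 without it). In Sox17-deficient cells the medians of these 4 lists were 0.10, -0.09, 0.16 and 0.20. At an unadjusted p under 0.05 in edgeR's test they gave 2 genes in that comparison, against 3.52% of all genes. Abca2, a lysosomal lipid transporter, was at 40.8, 21.2 and 13.1 CPM in Sox17-deficient cells, against 1.81, 6.16 and 8.602 CPM in control cells. Every deficient library was above every control, a pattern of 4.13% of all genes, and the log2 fold change was 2.15 (SE 0.88). Sox17 control 1 held 4 counts of Abca2, near the floor of 3. Mitf, a relative of TFEB, had 0 counts in all 3 Sox17-deficient libraries, against 30, 0 and 33 counts in control cells. Its counts in the Sox7 arm were 202 and 0 in deficient cells, against 25 and 142 in control cells.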

How the data were processed

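The Lexogen QuantSeq kit, a 3′ tag method, gave 1 library from 500 ng of Trizol-extracted total RNA per sample, per the labels' protocols. The deposited files, 1 for each library, hold raw counts as whole numbers for every gene symbol. Bowtie2, edgeR and mm10 are named in the submitters' processing notes, without role or version. The gene annotation, the counter used and whether it used strand are not given in the sources used here, so reads of overlapping or antisense genes cannot be told apart. Symbols listed more than once were summed, and 1183 symbols of microRNA genes held by the Sox17 files alone were left out.

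Counts of all 10 libraries entered 1 edgeR 4.0.16 fit in R 4.3.3 with group means (6 residual degrees of freedom), TMM scaling and filterByExpr, which removed 10198 genes and left 13040, all 34 lysosomal genes among them. The common biological coefficient of variation was 0.989. SE was taken as the absolute log2 fold change over the root of the F statistic. CPM uses TMM-scaled library sizes, and differences within sets use log2(CPM + 1). Libraries with the same number are described as a set. For 4 of the 5 sets they share a run label in their description, so the numbers were taken to pair libraries. Deviations from group means correlated at 0.193 in the Sox7 arm, and at 0.120, 0.0911 and 0.0896 in Sox17 sets 1, 2 and 3. With 2 libraries a group, both Sox7 sets must give the same value, so it counts once. Scripts were tested on simulated data. The genes and lists were chosen with earlier results of these data known. Values in every library are given for Ctsd, Ctsb, Ctsl, Lamp1, Lamp2, Psap and Grn and, in each comparison, for up to 8 genes with the smallest unadjusted p and the same direction in every set; the other genes shown per library were chosen after their values were seen. Alternatives were RLE or total-count scaling, no filter, DESeq2 1.42.0, limma-voom 3.58.1, leaving out Rn45s, 1 arm alone, a replicate block, and leaving out each library. Values of some single genes outside the 34 are not reported here.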

Additional observations from a re-analysis of the deposited data

How the results depend on the processing

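None of the 34 genes was called in the Sox7, the Sox17 or the difference test under the alternatives run for each. The smallest adjusted p was 0.0595, for Ctsz and Ctsd in edgeR's Sox7 test with no filter on low counts. Nothing is read from it, since the contrast chose the genes. With 1 arm alone the difference has no test, and the Sox7 test covered 33 of the 34. Of the 89 other genes of the pathway, 4 (Sox7) and 1 (difference) were called with no filter on low counts. The number of genes called over all genes, 0 in each comparison, was 58, 30 and 58 (Sox7, Sox17 and their difference) with no filter on low counts, 4, 39 and 32 with DESeq2, and 1, 6 and 3 with a replicate block. On leaving out 1 library it ran from 0 to 14, 0 to 1 and 0 to 9; without Sox7-deficient 1 it was 14, 1 and 9, and without Sox7 control 1 it was 3, 0 and 0. Where that left 1 library in a group, it was assumed to vary like the other groups.

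The median of the 34 genes in the Sox7 comparison ran from -0.49 (without Sox7-deficient 1) to 1.81 (without Sox7-deficient 2) on leaving out 1 library, and was 0.92 with the replicate block. In the Sox17 comparison it ran from 0.13 (without Sox17 control 3) to 0.33, was 0.14 without Sox17 control 1, 0.13 with limma-voom and 0.23 with the replicate block. In Sox17 set 3 the log2 ratio of summed CPM, 0.31, was 0.00565 with a geometric mean in place of the sum. In Sox17 set 2 the median difference, 0.11, was 0.00499 with total counts and no TMM factor. The causes were not tested. The replicate block changed no call among the 34. The common biological coefficient of variation of 0.989 limits what 2 or 3 libraries a group can detect.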
